A study of Mus musculus with 18 samples.

Results

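Of the 55401 genes in the deposited tables, 10 that belong to the cAMP pathway were followed through the thick ascending limb (TAL) of the mouse kidney: the receptors *Avpr2*, *Ptger3*, *Gcgr*, *Calcr* and *Adrb1*, the G protein subunit gene *Gnas*, the adenylyl cyclases *Adcy6* and *Adcy5*, and the protein kinase A subunits *Prkaca* and *Prkar2b*. They were chosen by name, as receptors coupled to cAMP in the TAL and their effectors. RNA was sequenced from 18 pools of TAL segments, hand-dissected either from the medulla (MTAL, outer medullary inner stripe) or the cortex (CTAL), with 150 to 200 structures of a single mouse in each pool. All animals were adult male mice labelled C57BL/6J and carried floxed *Cldn10* alleles (*Cldn10* fl/fl). The conditional knock-out (cKO) also carried a Ksp-Cre transgene, whose Ksp-cadherin promoter drives the recombinase along the distal nephron and not only in the TAL, and wild type (WT) stands for *Cldn10* fl/fl littermates without Cre. There were 5 pools of WT CTAL, 5 of cKO CTAL, 5 of WT MTAL and 3 of cKO MTAL. Calcium deposits hampered the dissection of MTAL from cKO kidneys, and pools that the authors set aside (2 of cKO MTAL, and 1 of cKO CTAL for a WT-like *Cldn10* level) were not analysed here.

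In the TAL, vasopressin binds the V2 receptor (*Avpr2*), glucagon binds its receptor (*Gcgr*), and calcitonin (*Calcr*) and beta-adrenergic (*Adrb1*) receptors use the same route. All of these activate the stimulatory G protein alpha subunit, Gs (*Gnas*), which turns on adenylyl cyclase, and the cAMP made releases the catalytic subunits of protein kinase A (*Prkaca*) from regulatory subunits such as *Prkar2b*. The pathway is known for stimulating sodium chloride transport by NKCC2. Prostaglandin E2 opposes it through the EP3 receptor (*Ptger3*), which couples to the inhibitory G protein, Gi.

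The pools held 10824299 to 62339939 counts each, which sets the precision of the low genes. The targeted gene *Cldn10* lay at 383 to 579 CPM (counts scaled to a common total of the pool) in WT CTAL, 156 to 185 CPM in cKO CTAL, 665 to 823 CPM in WT MTAL and 151 to 283 CPM in cKO MTAL, so that the genotypes did not overlap in either segment. One WT CTAL pool (replicate 1) has a genotype label that reads knock-out beside a name that reads WT. It was used as WT, and its *Cldn10* level was 446 CPM. The 9 TAL markers summed to 84979 to 95842 CPM in WT CTAL and 83306 to 98189 CPM in cKO CTAL. Their sum was lower in MTAL, at 50219 to 63089 CPM in WT MTAL and 68063 to 78561 CPM in cKO MTAL. The replicate 20 pool of cKO MTAL stood apart with 995 CPM of 7 principal cell markers, against 53.5 to 334 CPM in the other pools, and with 539 CPM of *Aqp2*. *Xist* reached 6.50 to 8.91 CPM in 7 pools labelled male (2 of WT CTAL, 1 of cKO CTAL, 4 of WT MTAL and 0 of cKO MTAL) and 0.234 to 0.736 CPM in the other 11, while *Ddx3y* was present in all 18 at 23.6 to 39.4 CPM.

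The promoters of 4 genes are shown because they belong to the 3 genes whose level differed in a comparison below and to *Prkaca*, the catalytic subunit. They were taken from RefSeq (GRCm38.p6), run 5′ to 3′ over the 250 bases before the annotated start, and have the half-site of the cAMP response element (TGACG, or CGTCA on the other strand) in capitals.
Ptger3 promoter, chr3:157566626-157566875, plus strand: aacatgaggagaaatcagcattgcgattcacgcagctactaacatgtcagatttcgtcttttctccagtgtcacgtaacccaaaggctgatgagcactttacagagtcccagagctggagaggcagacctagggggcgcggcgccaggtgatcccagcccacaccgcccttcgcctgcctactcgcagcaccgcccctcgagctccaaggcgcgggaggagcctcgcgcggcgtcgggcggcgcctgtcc
Gcgr promoter, chr11:120530477-120530726, plus strand: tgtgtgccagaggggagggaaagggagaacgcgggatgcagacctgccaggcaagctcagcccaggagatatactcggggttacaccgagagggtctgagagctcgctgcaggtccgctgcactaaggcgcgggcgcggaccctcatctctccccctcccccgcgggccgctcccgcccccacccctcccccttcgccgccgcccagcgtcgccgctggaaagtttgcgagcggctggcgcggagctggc
Prkar2b promoter, chr12:32061278-32061527, minus strand: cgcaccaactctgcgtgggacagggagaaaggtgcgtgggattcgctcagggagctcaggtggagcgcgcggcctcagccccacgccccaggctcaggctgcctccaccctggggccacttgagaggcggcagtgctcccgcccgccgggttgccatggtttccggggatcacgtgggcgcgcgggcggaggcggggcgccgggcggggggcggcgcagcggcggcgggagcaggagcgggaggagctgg
Prkaca promoter, chr8:83972728-83972977, plus strand: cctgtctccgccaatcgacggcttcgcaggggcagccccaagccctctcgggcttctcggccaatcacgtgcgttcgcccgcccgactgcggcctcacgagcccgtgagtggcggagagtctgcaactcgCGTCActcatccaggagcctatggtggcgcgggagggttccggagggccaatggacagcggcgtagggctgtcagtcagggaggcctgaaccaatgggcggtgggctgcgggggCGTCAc

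The whole element, TGACGTCA, the palindrome bound by CREB, was in 0 of the 15 promoters that RefSeq lists for 9 of the 10 genes, against 1.55% of all 32851 promoters. The half-site was in 7 of the 15, against 17.8% of all promoters, and belonged to *Calcr*, *Adrb1*, *Gnas* and *Prkaca*. Several of the 15 are alternative starts of 1 gene, and 2 of the 4 listed for *Gnas* overlap. The *Prkaca* promoter printed above holds it at 120 and at 6 bases before its start, and the other one listed for *Prkaca* holds none. No copy lies in this window of the *Ptger3*, *Gcgr* and *Prkar2b* promoters printed above.

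In TPM (counts corrected for transcript length and scaled to a common total), *Gnas* was the most abundant of the 10 genes, with a median over the 18 pools of 556 TPM (range 441 to 641). *Ptger3* followed at 385 TPM (287 to 569), the highest receptor, and its range overlapped that of *Gnas*. *Gcgr* at 103 TPM (57.9 to 142), *Adcy6* at 97.1 TPM (79.2 to 161) and *Prkaca* at 51.2 TPM (36.9 to 73.5) came next. *Gcgr* and *Adcy6* overlapped over most of their ranges, and *Prkaca* overlapped the lower end of *Gcgr*. *Avpr2* lay at 19.7 TPM (10.9 to 36.9), with its highest pool at the level of the lowest for *Prkaca*, and clear of *Adrb1* below it at 4.73 TPM (1.75 to 10.1). *Prkar2b* (0.94 TPM, 0.305 to 3.29) and *Adcy5* (0.52 TPM, 0.285 to 1.69) were low in all pools and could not be ordered by their ranges, and *Calcr* did not exceed 0.148 TPM.

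Within each family a few genes carried most of the transcripts. Of the 10 adenylyl cyclase genes, *Adcy6* was followed by *Adcy1*, a calcium-stimulated form, at a median of 24.0 TPM (20.6 to 32.4) and *Adcy9* at 3.08 TPM (1.64 to 4.04), and the highest value of any other cyclase in any pool was 2.03 TPM, for *Adcy7*. Among kinase subunits the regulatory *Prkar1a* had a median of 137 TPM and *Prkar2a* of 40.6 TPM, both far above *Prkar2b*, while the catalytic *Prkacb* had 31.2 TPM beside *Prkaca*. Among Gs-coupled receptors outside the 10 genes, the parathyroid hormone receptor gene *Pth1r* reached a median of 170.5 TPM (25.5 to 371). The other prostaglandin E2 receptors were lower than *Ptger3*: *Ptger4* had a median of 3.12 TPM, *Ptger1* of 1.52 TPM and *Ptger2* of 0.49 TPM. In bulk pools such as these, fewer cells of a type and less RNA per cell cannot be told apart.

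Rounded counts of each pair of groups were compared by edgeR's quasi-likelihood F test, and a gene is called different at an adjusted p (Benjamini-Hochberg, over all genes tested) under 0.05. Levels of 1 gene across pools are given in CPM, and differences as log2 fold changes ± standard error (SE). The comparisons share groups and so are not independent of each other.

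**Figure D1:**
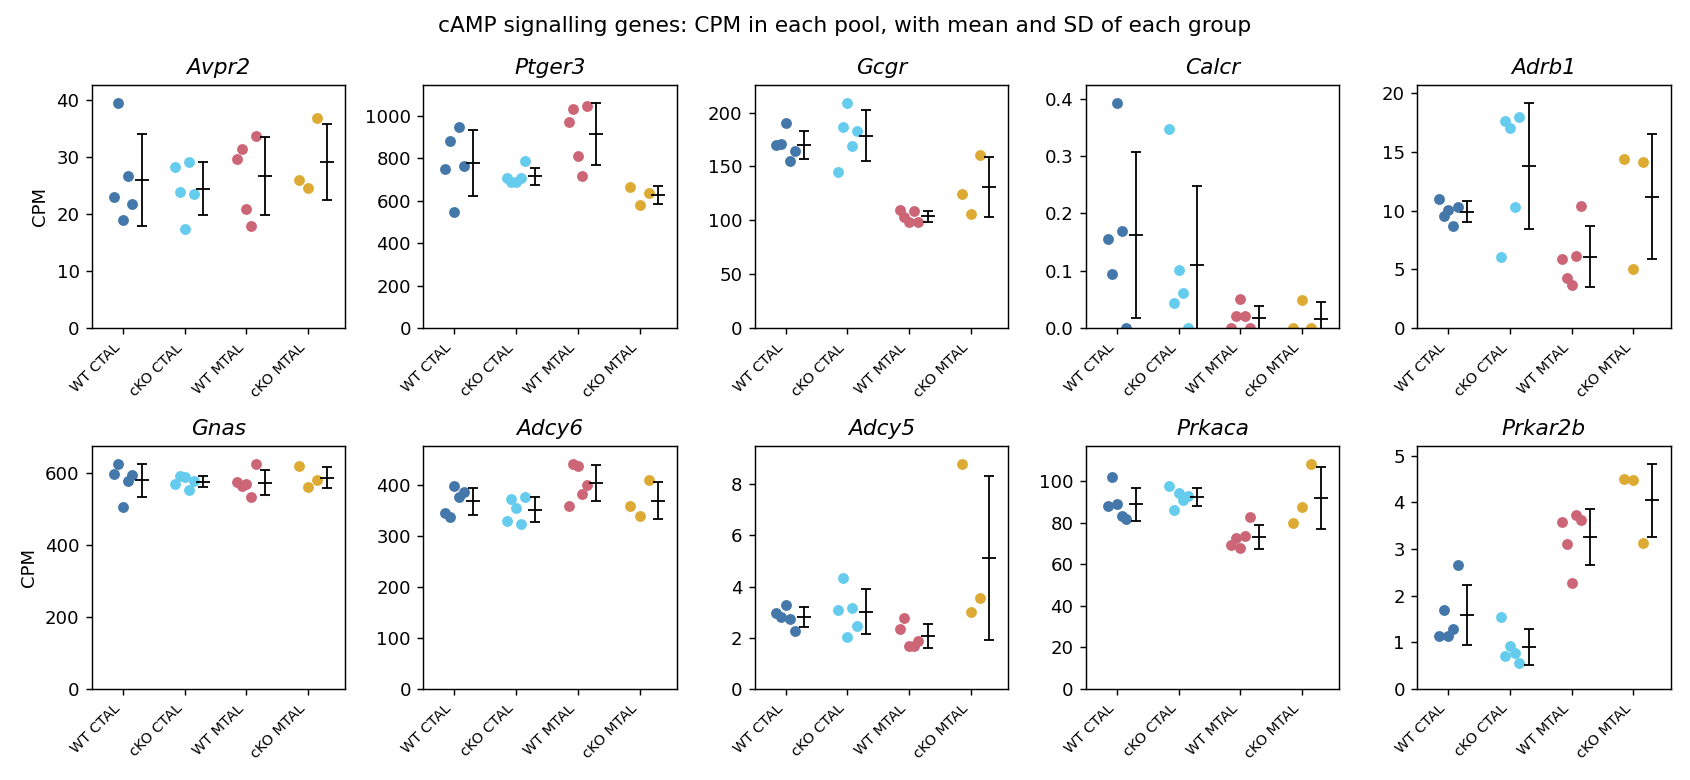
CPM of the 10 genes in each pool (points, one colour per group), with the mean and SD of each group in black (n = 5, 5, 5 and 3 pools), on linear axes that start at 0. *Ptger3* is lower in all 3 cKO MTAL pools than in any WT MTAL pool, *Gcgr* is lower in all 5 WT MTAL pools than in any CTAL pool, and *Prkar2b* is higher in MTAL than in cKO CTAL.

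The first question was whether these genes change with the deletion of *Cldn10* where *Cldn10* is most abundant, in MTAL. Tests were made for 9 of the 10 genes (*Calcr* was too low), and 1, *Ptger3*, was called lower in cKO MTAL than in WT MTAL. Of all 12060 genes tested, 7.01% were called different and 2.57% were called lower, so that 1 call among 9 genes is close to the background. At an unadjusted p under 0.05, 5 of the 9 passed, against 23.6% of all genes. Among these 5, *Adcy5* entered the test only through the cKO MTAL pools, where it is high, so its p is not independent support. The median log2 fold change of the 9 genes was 0.36, against 0.00 over all genes. This median includes *Adcy5* and *Prkar2b*, which are close to the filter of 3 CPM in 3 pools.

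*Ptger3*, the EP3 receptor, had 970.0, 1029.6, 809, 714 and 1047 CPM in the WT MTAL pools and 666, 579 and 636 CPM in the cKO MTAL pools. All cKO MTAL pools lay below all WT MTAL pools, as 9.41% of all genes did. The log2 fold change was -0.49 ± 0.14 (SE, n = 3 and 5 pools), a ratio of 0.712, with an adjusted p of 0.0403 from edgeR. The call held in 1 of 8 fits that left out a pool, the one without WT MTAL replicate 17. Over the 8 fits the adjusted p was 0.0158 to 0.105, highest without cKO MTAL replicate 18, and the log2 fold change stayed between -0.56 and -0.42. It was also lost when library totals replaced TMM factors (-0.42, adjusted p = 0.0933) and on the TPM scale (-0.27, adjusted p = 0.384 with limma), on which the median of all genes moved up by 0.19. With a term for the pools with *Xist*, 4 of the 5 WT MTAL pools and no cKO MTAL pool, the difference was -0.51 with an adjusted p of 0.0634. Endothelial markers fell in the same comparison, with 4 of 7 called lower (*Cdh5*, *Flt1*, *Emcn* and *Plvap*) and a summed level of 156 to 255 CPM in cKO MTAL against 275 to 429 CPM in WT MTAL. The part of these cells in the *Ptger3* difference was not tested. No annotated gene overlaps *Ptger3* (chr3:157566892-157645888, plus strand, GRCm38).

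*Adcy5*, a cyclase known from heart and brain, was at 2.35, 2.77, 1.66, 1.65 and 1.88 CPM in WT MTAL and at 8.80, 3.01 and 3.54 CPM in cKO MTAL. The groups did not overlap, as for 5.61% of genes in this direction, but replicate 16 stood far above the other 2 cKO MTAL pools. The log2 fold change of 1.36 ± 0.45 did not pass (adjusted p = 0.0749, edgeR), and *Adcy5* entered the test only through the 3 cKO MTAL pools, since no WT MTAL pool reached 3 CPM. The gene closest to it in pattern over the 18 pools was *Acta2* (Pearson's r = 0.91, and 0.79 without the 2 most extreme pools), a smooth muscle and pericyte actin, which had 36.8 CPM in the same replicate 16 pool, 16.8 and 22.3 CPM in the other two and 9.01 to 13.9 CPM in WT MTAL. *Acta2* rose in cKO MTAL (log2 fold change 1.22, adjusted p = 0.0114, edgeR), the only one of 5 tested fibroblast and pericyte markers that was called. The median log2 fold change of these 5 was -0.52, in the other direction from *Acta2*. The 7 listed markers, *Acta2* included, summed to 52.3 to 63.5 CPM in cKO MTAL and 40.0 to 60.6 CPM in WT MTAL. The part of fibroblasts and pericytes in the *Adcy5* values was not tested.

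*Prkaca*, the main catalytic subunit of the kinase, was at 69.0, 72.8, 67.9, 73.6 and 82.7 CPM in WT MTAL and at 79.7, 87.4 and 108 CPM in cKO MTAL. The lowest cKO MTAL pool lay inside the WT range, and the log2 fold change of 0.38 ± 0.13 did not pass (adjusted p = 0.0828, edgeR). *Gcgr*, the glucagon receptor, was at 109, 103, 98.0, 109 and 98.3 CPM in WT MTAL and at 125, 106 and 161 CPM in cKO MTAL, with a log2 fold change of 0.39 ± 0.13 (adjusted p = 0.0880, edgeR). Its highest value was in replicate 20, the pool with the most principal cell transcripts, and without that pool the difference was 0.22 (adjusted p = 0.402), whereas it was 0.53 without replicate 18 (adjusted p = 0.0208). *Prkaca* also had its highest value there, and without that pool its difference was 0.25 (adjusted p = 0.330, edgeR). The part of principal cells in the *Gcgr* and *Prkaca* values was not tested. *Adrb1*, the beta-1 adrenergic receptor, had 14.4 and 14.1 CPM in replicates 16 and 20 but 5.03 CPM in replicate 18, inside the 3.68 to 10.4 CPM of WT MTAL. Its log2 fold change of 0.94 ± 0.41 did not pass (adjusted p = 0.173, edgeR). In 1 fit of all 4 groups, which shares the spread of the CTAL pools, *Prkaca* (adjusted p = 0.0142), *Gcgr* (0.0322) and *Adcy5* (0.0117) passed, with differences of the same size, but this fit called 2060 of all 12060 genes, against 845 in the fit of the MTAL pools alone.

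*Avpr2*, the vasopressin V2 receptor, was at 29.7, 31.4, 20.9, 17.9 and 33.8 CPM in WT MTAL and at 26.0, 24.6 and 36.9 CPM in cKO MTAL. The highest value again belonged to replicate 20, and *Avpr2* is also expressed in principal cells. The difference was 0.18 ± 0.23 (adjusted p = 0.689, edgeR), and -0.02 without that pool. The part of principal cells in the *Avpr2* values was not tested. *Avpr2* (chrX:73892102-73895502, plus strand) overlaps *L1cam* and *Arhgap4* on the other strand, and whether strand was used in counting is not given in the sources used here. *Gnas*, the Gs subunit, kept to 532 to 625 CPM in WT MTAL and 561 to 618 CPM in cKO MTAL (log2 fold change 0.09 ± 0.10). The locus of *Gnas* on chromosome 2 also holds the antisense gene *Nespas*, and its 24 annotated transcripts were counted as 1 gene. *Adcy6*, the main cyclase here, had 359 to 442 CPM in WT MTAL and 339 to 409.6 CPM in cKO MTAL (log2 fold change -0.08 ± 0.12). Neither passed the test, with adjusted p of 0.671 for *Gnas* and 0.735 for *Adcy6* from edgeR. *Prkar2b*, the RII beta regulatory subunit of the kinase, was at 3.13 to 4.51 CPM in cKO MTAL and 2.27 to 3.74 CPM in WT MTAL (0.36 ± 0.38, adjusted p = 0.620).

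**Figure D2:**
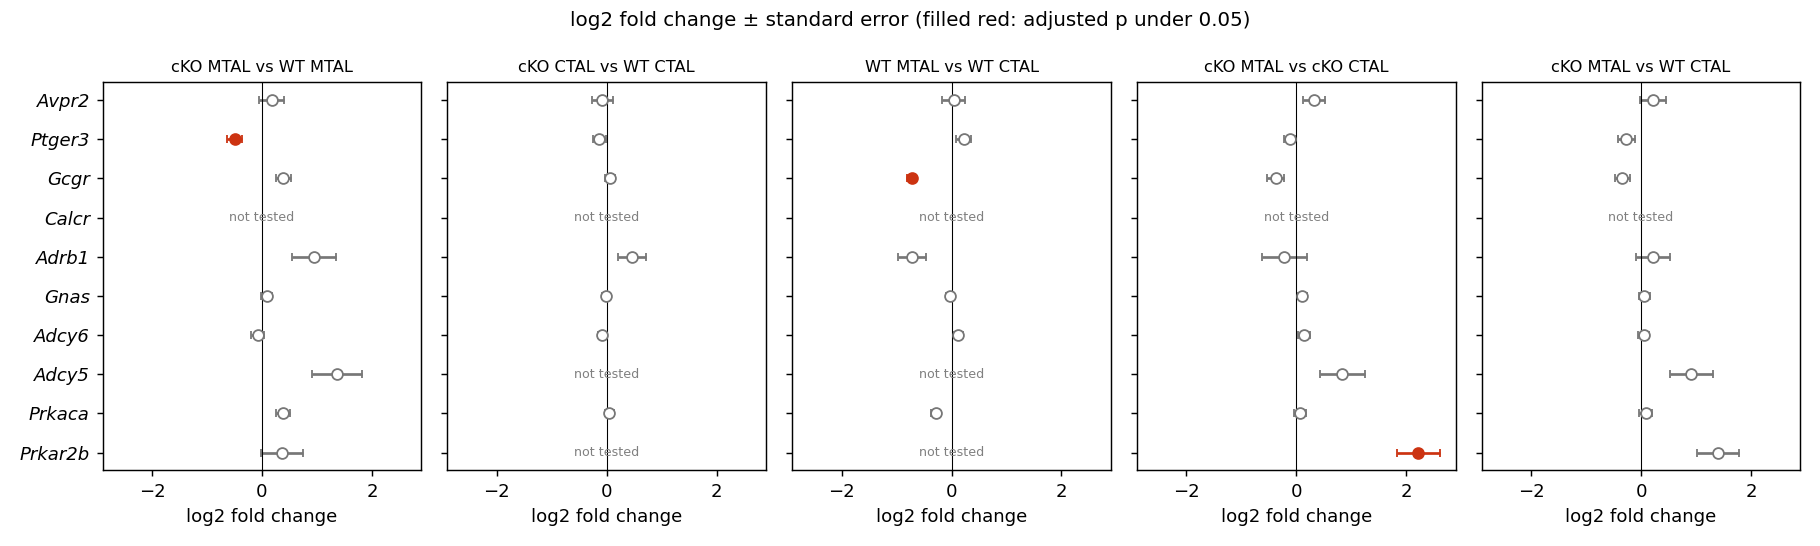
log2 fold change (point) and standard error (bar) of the 10 genes in 5 comparisons, each first group over the second. Filled red points passed an adjusted p under 0.05: *Ptger3* in cKO MTAL against WT MTAL (-0.49), *Gcgr* in WT MTAL against WT CTAL (-0.73) and *Prkar2b* in cKO MTAL against cKO CTAL (2.22).

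The second question was whether the deletion changes the same genes in the cortex. None of the 7 genes tested between cKO CTAL and WT CTAL was called by edgeR (1.22% of 11702 genes were), and 0 of 7 had an unadjusted p under 0.05, against 11.8% of all genes. DESeq2 also called 0 of the 7, and 360 of all 11702 genes. *Ptger3* was at 749.9, 883, 545, 946 and 762 CPM in WT CTAL and 706, 689, 685, 705 and 787 CPM in cKO CTAL, with a log2 fold change of -0.13 ± 0.12. The cKO CTAL values lay inside the WT range. *Gcgr* was at 145 to 209 CPM in cKO CTAL and 155 to 190.4 CPM in WT CTAL (0.06 ± 0.10). Of the 7 genes tested, *Adrb1* had the largest difference, 0.46 ± 0.25. Its level was 17.6, 17.1 and 18 CPM in 3 cKO CTAL pools and 6.07 and 10.3 CPM in the remaining pools. In WT CTAL it was 8.67 to 11 CPM. The adjusted p was 0.514 from edgeR, and the pools of cKO CTAL spread on both sides of WT CTAL. *Rgs2*, a GTPase-activating protein for G proteins, was the gene most like *Adrb1* over the 18 pools (Pearson's r = 0.87), with 99.4, 101 and 119.5 CPM in the same 3 cKO CTAL pools and 34.0 and 54.2 CPM in the other two. The latter, replicates 2 and 9, had 50015065 and 60990142 counts, against 19976444 to 22206734 in the same 3 pools. Their principal cell markers summed to 292 and 307 CPM, against 72.7 to 151 CPM. The part of depth and of principal cells in this split was not tested. *Adcy5*, *Prkar2b* and *Calcr* were too low for this test. With low genes kept, their log2 fold changes were 0.10, -0.80 and -0.53, and the adjusted p was 0.493 or higher.

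Whether the genotype effect differed between the segments was tested as an interaction in 1 fit of all 18 pools. It was called for 0 of 9 genes by edgeR's quasi-likelihood test, which called 0.286% of all 12586 genes. The likelihood ratio test of edgeR also called 0 of the 9, and 337 of all 12586 genes. An unadjusted p under 0.05 was found for 3 of the 9 (*Adcy5*, *Prkaca* and *Prkar2b*), against 14.7% of all genes. For *Ptger3* the effect in MTAL minus that in CTAL was -0.38 ± 0.19 (adjusted p = 0.360), so that its lower level in cKO MTAL is not shown to be particular to MTAL.

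The normal segments were compared next. Of 7 genes tested, 1 was called lower in WT MTAL than in WT CTAL, the glucagon receptor gene *Gcgr*, where 6.87% of 11650 genes were called and 4.10% were called lower. *Gcgr* was at 170.3, 171, 190.4, 155 and 164 CPM in WT CTAL and at 109, 103, 98.0, 109 and 98.3 CPM in WT MTAL. The groups did not overlap, as for 4.09% of genes in this direction, with 155 CPM as the lowest cortical and 109 CPM as the highest medullary value. The log2 fold change was -0.73 ± 0.08 (n = 5 and 5 pools, adjusted p = 1.89e-05, edgeR), a ratio of 0.604. It held in all 10 fits without one pool (-0.76 to -0.68). The genes most like *Gcgr* in pattern over all 18 pools were *Dusp9*, *Egf* and *Acss1* (Pearson's r = 0.96, 0.93 and 0.93 among 12158 genes), and *Egf*, a TAL marker, was also lower in WT MTAL (log2 fold change -1.02). *Gcgr* (chr11:120530699-120538986, plus strand) overlaps the antisense gene *Gm11789*.

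The other receptors did not pass between the normal segments. *Adrb1* was at 8.67 to 11 CPM in WT CTAL and at 5.92, 4.29, 3.68, 6.15 and 10.4 CPM in WT MTAL, where only replicate 19 reached the cortical range. Its difference was -0.72 ± 0.25 (adjusted p = 0.111, edgeR). It passed in 1 of 10 fits that left out a pool, the one without replicate 19 (-0.99, adjusted p = 0.0121). Over these fits the adjusted p reached 0.241, without WT CTAL replicate 1. *Prkaca* was at 82.0 to 102 CPM in WT CTAL and 67.9 to 82.7 CPM in WT MTAL, and again replicate 19 alone overlapped. Its difference was -0.29 ± 0.09 (adjusted p = 0.0612, edgeR). *Prkaca* too passed in 1 of 10 fits (0.0395 without replicate 19), and its adjusted p reached 0.143. Leaving out the pool that overlaps favours a difference, so neither fit is separate support. *Ptger3* (0.23 ± 0.14), *Avpr2* (0.04 ± 0.21), *Gnas* (-0.02 ± 0.08) and *Adcy6* (0.13 ± 0.09) had adjusted p of 0.410 to 0.946. *Calcr* was counted 0 to 24 times in a CTAL pool and 0 or 1 times in an MTAL pool. A count of 3 corresponds to 0.0457 to 0.282 CPM, depending on the pool, so that its level was at or near the limit of detection, and its difference with low genes kept did not pass (adjusted p = 0.156).

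*Prkar2b* separated the segments in the knock-out. It was at 4.51, 4.49 and 3.13 CPM in cKO MTAL and at 1.53, 0.696, 0.909, 0.776 and 0.550 CPM in cKO CTAL, without overlap, as for 3.49% of genes in this direction. This gave a log2 fold change of 2.22 ± 0.38 (adjusted p = 0.0125, edgeR), a ratio of 4.66. Among 9 genes tested it was the one called, where 1.75% of 12044 genes were called and 1.12% were called higher. *Prkar2b* passed the filter only through the cKO MTAL pools where it is high. With low genes kept it was still called (2.18, adjusted p = 0.0267), and without any one cKO MTAL pool the filter leaves it untested. The normal segments went the same way with low genes kept, at 3.58, 3.1, 2.27, 3.74 and 3.61 CPM in WT MTAL and 1.13, 1.69, 1.13, 1.29 and 2.66 CPM in WT CTAL, but the difference of 1.05 ± 0.32 did not pass (adjusted p = 0.103). Only replicate 22 of WT CTAL lay above the lowest WT MTAL pool. Thin limb markers also differed between the segments, with a sum of 84.0 to 135 CPM in cKO MTAL and 28.7 to 56.3 CPM in cKO CTAL. Of 4 tested, 2 (*Aqp1* and *Slc14a2*) were called higher in cKO MTAL. Their sum was higher still in WT MTAL, at 121 to 213 CPM, where *Prkar2b* was not higher than in cKO MTAL. In WT CTAL it was 38.5 to 147 CPM. The part of thin limb cells in the *Prkar2b* difference was not tested.

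In the same comparison *Ptger3* did not overlap either, as for 7.28% of genes in the lower direction, with 579 to 666 CPM in cKO MTAL against 685 to 787 CPM in cKO CTAL, but the log2 fold change was only -0.11 ± 0.10 and did not pass (adjusted p = 0.593, edgeR). *Gcgr* was at 106 to 161 CPM against 145 to 209 CPM, a difference of -0.37 ± 0.16 (adjusted p = 0.238). When cKO MTAL was set against WT CTAL, edgeR called 0 of 9 genes, where 2.50% of 12024 were called. An unadjusted p under 0.05 was found for 3 of the 9 (*Gcgr*, *Adcy5* and *Prkar2b*) and for 2402 of all genes. DESeq2 called 1 of the 9, *Prkar2b*, and 826 of all 12024 genes. The *Prkar2b* groups did not overlap there, as for 4.51% of genes in this direction (log2 fold change 1.41 ± 0.38, adjusted p = 0.0772, edgeR). No WT CTAL pool reached 3 CPM, so here too *Prkar2b* entered the test only through the cKO MTAL pools, and neither the separation nor the DESeq2 call stands as independent support.

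Around the 10 genes, 12 lists held 146 further genes of the pathway, of which 145 were in the tables. Between cKO MTAL and WT MTAL 96 were tested, 9 rose and 5 fell (14.6%, against 7.01% of all genes), and their median log2 fold change was 0.03. The other Gs-coupled receptors were led by *Pth1r*, the receptor of parathyroid hormone, at 69.5, 63.4, 43.2, 45.4 and 53.3 CPM in WT MTAL and 177, 337 and 297 CPM in cKO MTAL. It rose by 2.35 ± 0.19 (log2), and no other of the 5 tested passed. Of 5 Gi-coupled receptors, the calcium-sensing receptor *Casr* rose from 477 ± 52.1 to 749 ± 71.5 CPM (SD, n = 5 and 3), whereas the serotonin receptor *Htr1b* fell from 66.4 ± 17.6 to 29.8 ± 3.93 CPM and the sphingosine-1-phosphate receptor *S1pr1*, which endothelium also expresses, fell from 18.5 ± 2.50 to 9.58 ± 0.322 CPM.

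**Figure D3:**
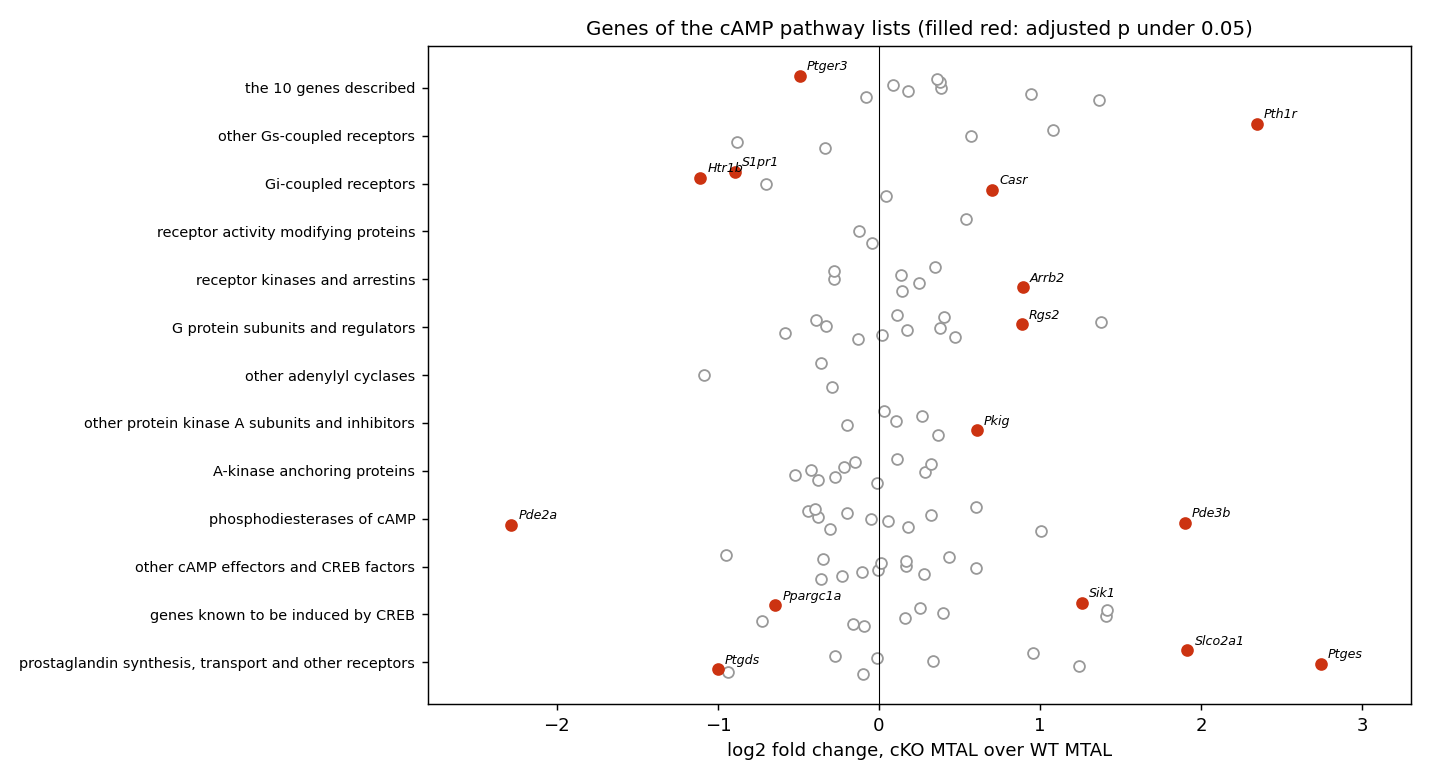
log2 fold change of cKO MTAL over WT MTAL for each tested gene of the 10 genes and of the 12 pathway lists, 1 row per list, with genes past an adjusted p under 0.05 filled in red and named. Most lists spread on both sides of 0, and *Pth1r*, *Ptges*, *Slco2a1* and *Pde3b* rose most, while *Pde2a* fell most.

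Prostaglandin genes moved in both directions, with 2 higher and 1 lower of 10 tested. The prostaglandin transporter *Slco2a1* rose (log2 fold change 1.91 ± 0.26, 9.79 ± 3.24 to 35.7 ± 7.41 CPM), and so did the prostaglandin E synthase *Ptges* (2.74 ± 0.59), although its 3 cKO MTAL pools spread from 2.82 to 17.4 CPM and the lowest of them lay at the top of the WT MTAL range (0.509 to 2.82 CPM). *Ptges* passed the filter only through the cKO MTAL pools, where it is high. The prostaglandin D synthase *Ptgds* fell from 54.9 ± 8.46 to 26.5 ± 2.13 CPM (-1.0 ± 0.17). Of the 13 phosphodiesterases tested, *Pde3b* rose (1.90 ± 0.53) and *Pde2a*, the cGMP-stimulated form, fell (-2.28 ± 0.66), with an adjusted p close to the threshold in both cases (0.0407 and 0.0491).

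Of the regulators, *Arrb2*, a beta-arrestin that desensitizes receptors, was 1 of 7 receptor kinases and arrestins tested and rose (0.89 ± 0.25), and *Rgs2* was 1 of 12 G protein subunits and regulators and rose (0.89 ± 0.20). *Pkig*, which encodes a protein kinase A inhibitor, rose from 31.0 ± 3.86 to 45.5 ± 2.84 CPM and was 1 of 6 kinase subunits and inhibitors tested. Among 10 genes that CREB is known to induce, *Sik1* rose (1.26 ± 0.26) and *Ppargc1a* fell (-0.65 ± 0.15). None of 10 A-kinase anchoring proteins, 12 other effectors and CREB factors, 3 other cyclases and 3 receptor activity modifying proteins was called by edgeR. The numbers with an unadjusted p under 0.05 were 1, 2, 2 and 0, where 23.6% of all 12060 genes had one.

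In the cortex, 4 of 91 pathway genes were called between genotypes (4.4%, against 1.22% of all genes). *Pth1r* rose from 256 ± 44.4 to 450.2 ± 41.9 CPM, and *Fos*, *Fosb* and *Ptgds* fell. *Pth1r* was the one gene of the 98 tested with a called interaction (1.53 ± 0.23, adjusted p = 0.00356, edgeR). Between the normal segments 9 of 89 were called (10.1%, against 6.87% of all genes). *Htr1b*, *Gnaz* and *Ptgds* were higher in WT MTAL, and *Pth1r*, *Casr*, *Ramp3*, *Pkig*, *Pde8b* and *Slco2a1* were lower. Between the knock-out segments 9 of 93 were called (9.68%, against 1.75% of all genes), and 4 of the 7 that were higher in cKO MTAL were the immediate early and CREB-inducible genes *Fos*, *Fosb*, *Junb* and *Dusp1*. *Fos* also spread widely within WT MTAL, from 331 to 1567 CPM. Between cKO MTAL and WT CTAL 2 of 93 were called, *Junb* higher and *Pde1a* lower (2.15%, near the 2.50% of all genes).

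Likeness over the 18 pools was also computed for the remaining genes. *Ptger3* was most like *Atp5b*, *Itm2b* and *Bst2* (Pearson's r = 0.89, 0.88 and 0.86), *Prkaca* most like *Nup210*, *Rhbdd2* and *Gpr162* (0.94, 0.92 and 0.91), and *Prkar2b* most like *Timp2*, *Csrp2* and *Rph3a* (0.92, 0.90 and 0.89). The highest r was 0.84 for *Adcy6* (with *2900026A02Rik*), 0.79 for *Avpr2* (with *Taldo1*) and 0.72 for *Gnas* (with *Fbxo44*). These values describe likeness across 18 pools that share library preparation and differ in depth and group.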

How the data were processed

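Poly-A RNA of 18 pools was sequenced after a strand-specific preparation. The authors trimmed the reads, mapped them to mm10 and quantified them per gene on the DRAGEN platform. FastQC, Trimmomatic and Picard are also named in the submitters' processing notes. The authors deposited an estimated count per gene, raw and unscaled, and 6.26% to 9.53% of a pool's genes had one with decimals. The TPM values deposited by the authors are scaled for transcript length and total. Strand use in counting is not given in the sources used here. Groups were taken from the labels, with a pool from a distinct mouse as replicate.

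Counts were rounded, which the planned test allowed for, and TMM-normalized. The quasi-likelihood F test (edgeR 4.0.16, R 4.3.3) was run on the pools of the groups compared, for genes that reached 3 CPM in 5 or more pools (3 or more where cKO MTAL entered, and in the interaction). Alternatives used the likelihood ratio tests of edgeR and DESeq2 1.42.0, total counts, a minimum of 10 summed counts, limma 3.58.1 on log2(TPM + 1) and log2(TPM + 0.1), 1 fit of all groups, exact two-sided Mann-Whitney tests, relabelling of the pool with conflicting labels, and leaving out each pool. The scripts were tested on simulated data. CPM per pool use TMM factors of all 18 pools. Likeness is Pearson's r of log2(CPM + 1) among genes with at least 3 CPM in 5 pools, the 3 most alike per gene. From each pathway list, up to 4 genes called between cKO and WT MTAL, between the normal segments or in the interaction were named. Genes called only in another comparison, *Adcy1*, *Adcy7* and the family genes given by level were named after their values were seen. The 10 genes and the lists were chosen with earlier results of these data known. Gene positions are from GENCODE M21, in which 55141 of the 55401 identifiers were found.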

Additional observations from a re-analysis of the deposited data

Results flagged for a closer look

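Over 30 combinations of gene and group of 5 pools, 1 was marked by Dixon's test for a pool far from the others, where chance marks about 1 in 20. *Ptger3* was at 787 CPM in cKO CTAL replicate 21, against 685 to 706 CPM in the other 4 pools. The genotype effect on *Pth1r* was larger in MTAL than in CTAL by 1.53 on the log2 scale, by the interaction test of edgeR (adjusted p = 0.00356).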

How the results depend on the processing

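Counts of the 10 genes called are compared here, and no direction of a called gene reversed in any alternative run. For cKO MTAL against WT MTAL (1 called, *Ptger3*), edgeR's likelihood ratio test and the unadjusted exact Mann-Whitney test gave 2 (with *Adcy5*), 1 fit of all 4 groups gave 4 (with *Gcgr*, *Adcy5* and *Prkaca*), and total counts and both TPM scales gave 0. Of all 12060 genes, 845 were called by the test reported, 1304 by the likelihood ratio test and 2060 by the fit of all groups. Leaving out the pools with *Xist* gave 0, but then no gene of the 12060 was called. Leaving out 1 pool gave 0 to 1. For WT MTAL against WT CTAL (1 called, *Gcgr*), the likelihood ratio tests of edgeR and DESeq2, the fit of all groups and the Mann-Whitney test gave 2 (with *Prkaca*), leaving out the pools with *Xist* gave 2 (with *Adrb1*), and leaving out 1 pool gave 1 to 3, with 3 without WT MTAL replicate 19. For cKO MTAL against cKO CTAL (1 called, *Prkar2b*), an *Xist* term gave 2 (with *Gcgr*), the Mann-Whitney test gave 2 and leaving out 1 pool gave 0 to 1. For cKO MTAL against WT CTAL (0 called), the likelihood ratio tests, the fit of all groups, the *Xist* term and the Mann-Whitney test gave 1 (*Prkar2b*), and leaving out 1 pool gave 0 to 1, with 1 without WT CTAL replicate 22. For cKO CTAL against WT CTAL and the interaction, every alternative run gave 0, and without the pools with *Xist* no gene had a called interaction. The causes were not tested. With the thresholds of the study (a log2 fold change of at least 1 as well), *Prkar2b* in cKO MTAL against cKO CTAL was the 1 call left. The TPM scales moved the median of all genes by 0.13 to 0.21 (log2) in the comparisons of cKO MTAL or cKO CTAL with WT pools.

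No pool reached the planned 10 CPM of *Xist*, so those fits were not run, and 3 CPM was chosen after seeing the data. Without the pools with *Xist* only 1 WT MTAL pool was left, which is assumed to vary like the other group. No paired analysis was possible because the groups share no replicate numbers. With 3 pools against 5, the smallest exact p is 0.0357. *Calcr* was too low for a test with or without the filter in cKO MTAL against WT MTAL.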
